A study of Mus musculus with 24 samples.

Results

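The genes described here are 9 that make or remove reactive oxygen species in phagocytes: Cybb, Cyba, Ncf1, Ncf4, Rac1 and Rac2, which encode parts of the phagocyte NADPH oxidase or the small GTPases that switch it on, and Sod2, Gsr and Cat, which encode antioxidant enzymes. They were taken by symbol from a table of 37979 genes, and all 9 were found and were above 0 in every library. RNA sequencing values of these genes were examined in 24 libraries of macrophages and monocytes sorted from lungs of male C57BL/6 mice aged 10 to 16 weeks, in 8 groups of 3 libraries. Tumours came from Lewis lung carcinoma cells carrying luciferase (LLC-Luc), a mouse lung cancer line that was injected into the left lung of mice with a normal immune system.

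Sorting divided the cells into MacB3 (CD11b+, Ly6G-, CD64 high, CD11c+), MacB2 (CD11b+, Ly6G-, CD64 medium, CD11c-), MacB1 (CD11b+, Ly6G-, CD64 low, CD11c+) and MacA (SiglecF+, CD11c+). Tumour-bearing lungs gave MacB3-3wk and MacB2-3wk at 3 weeks after injection and MacB3-2wk, MacB2-2wk and MacA-2wk at 2 weeks, and lungs of uninjected mice gave MacB1-N, MacB2-N and MacA-N. Each library pooled the cells of 3 to 5 mice and stood for an experiment of its own. For tumour-bearing mice the left lobe with the tumour was used, and for uninjected mice all lobes, so tumour and lobe cannot be told apart. Every MacA library was run on lane 1 and MacB libraries were run on lanes 2, 3 and 7, so population and lane cannot be told apart between MacA and MacB.

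The phagocyte NADPH oxidase moves electrons from NADPH across a membrane onto oxygen and so makes superoxide. Its membrane core joins CYBB (gp91phox), which carries the electrons, with CYBA (p22phox), which stabilises it, and it works only once cytosolic subunits, among them NCF1 (p47phox) and NCF4 (p40phox), and a GTP-bound RAC protein have docked. Superoxide dismutases such as mitochondrial SOD2 turn superoxide into hydrogen peroxide, catalase (CAT) splits the peroxide into water and oxygen, and glutathione reductase (GSR) uses NADPH to regenerate the reduced glutathione that peroxidases consume. Alveolar macrophages, the resident phagocytes of the air spaces, and monocytes that enter the lung both carry this machinery.

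Rac1 and Rac2 are close relatives whose balance differed between the sorted populations, so the end of their coding sequences is shown to let a reader see how far reads can tell them apart. The coding sequences compared, of 192 residues each, were 579 bases long and identical at 446 (77.0%), of which 403 lay among the first 504 bases. In the last 75 coding bases, stop codon included, 32 bases differed, and these are the capitals below. The stretches lie at chr5:143506975-143507049 (Rac1) and chr15:78561908-78561982 (Rac2), both on the minus strand of GRCm38, and no run of 36 bases was shared between transcripts of the 2 genes.
Rac1: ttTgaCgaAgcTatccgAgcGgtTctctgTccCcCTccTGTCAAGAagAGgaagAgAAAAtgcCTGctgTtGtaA
Rac2: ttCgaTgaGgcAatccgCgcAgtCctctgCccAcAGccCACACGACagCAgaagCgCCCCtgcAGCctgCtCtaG

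The promoters of Cybb and Cat are shown because levels of both genes were lower in MacB2-3wk than in MacB2-N, as described further on. These are RefSeq promoters of GRCm38.p6, from 250 bases before to 50 bases after the start, at chrX:9469275-9469574 (Cybb) and chr2:103485104-103485403 (Cat), both on the minus strand and printed 5′ to 3′. Promoter entries were matched for 5 of the 9 genes (Cybb, Cyba, Ncf1, Sod2 and Cat). Capitals mark matches on either strand to the PU box GAGGAA, the core letters bound by the myeloid factor PU.1, and to the CCAAT box, CCAAT. The antioxidant response element TGACNNNGC was also searched and was found in none of the 5 windows.
Cybb: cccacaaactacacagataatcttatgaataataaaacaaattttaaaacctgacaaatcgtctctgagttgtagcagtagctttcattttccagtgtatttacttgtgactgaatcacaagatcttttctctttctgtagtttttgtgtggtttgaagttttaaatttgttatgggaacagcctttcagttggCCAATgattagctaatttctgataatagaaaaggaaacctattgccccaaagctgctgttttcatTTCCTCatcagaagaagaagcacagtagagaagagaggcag
Cat: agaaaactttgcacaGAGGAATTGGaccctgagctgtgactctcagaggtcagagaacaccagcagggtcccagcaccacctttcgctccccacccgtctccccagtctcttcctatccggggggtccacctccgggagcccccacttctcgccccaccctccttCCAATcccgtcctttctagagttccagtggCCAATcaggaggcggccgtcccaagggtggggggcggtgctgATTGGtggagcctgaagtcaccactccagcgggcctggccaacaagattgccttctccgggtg
Cybb held 1 PU box and 1 CCAAT box in this window. Cat held 1 PU box and 4 CCAAT boxes, 1 of which overlapped the PU box. Among the windows not printed, that of Sod2 held 1 PU box and 1 CCAAT box, and those of Cyba and Ncf1 held 0 of either. Sod2, Cyba and Ncf1 were not called in MacB2-3wk against MacB2-N. Over 32851 promoters of the same length, 28.3% held a PU box, 37.4% a CCAAT box and 12.4% the antioxidant response element, so these matches are common and describe the letters only.

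Levels are in FPKM, fragments scaled to gene length and library size, which allow genes to be compared per length, and are given as mean ± SD over the 3 libraries of a group. Differences are log2 fold changes of FPKM + 1 with their standard error (SE), from 1 limma model of all libraries over 17156 genes, and a gene is called higher or lower where its p adjusted over those genes by the Benjamini-Hochberg method was under 0.05. Across libraries, Cyba was at 415 to 1213 FPKM, Cybb at 215 to 824 FPKM and Rac1 at 187 to 452 FPKM. Lower ranges were found for Rac2 (52.1 to 256 FPKM), Gsr (24.1 to 216 FPKM), Cat (42.6 to 205 FPKM), Ncf1 (49.6 to 165 FPKM), Ncf4 (21.1 to 105 FPKM) and Sod2 (19.3 to 44.8 FPKM). The highest group mean was 6.57 times the lowest for Gsr, against 1.72 times for Rac1 and 1.98 times for Sod2, so Gsr varied most between groups and Rac1 least.

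**Figure D1:**
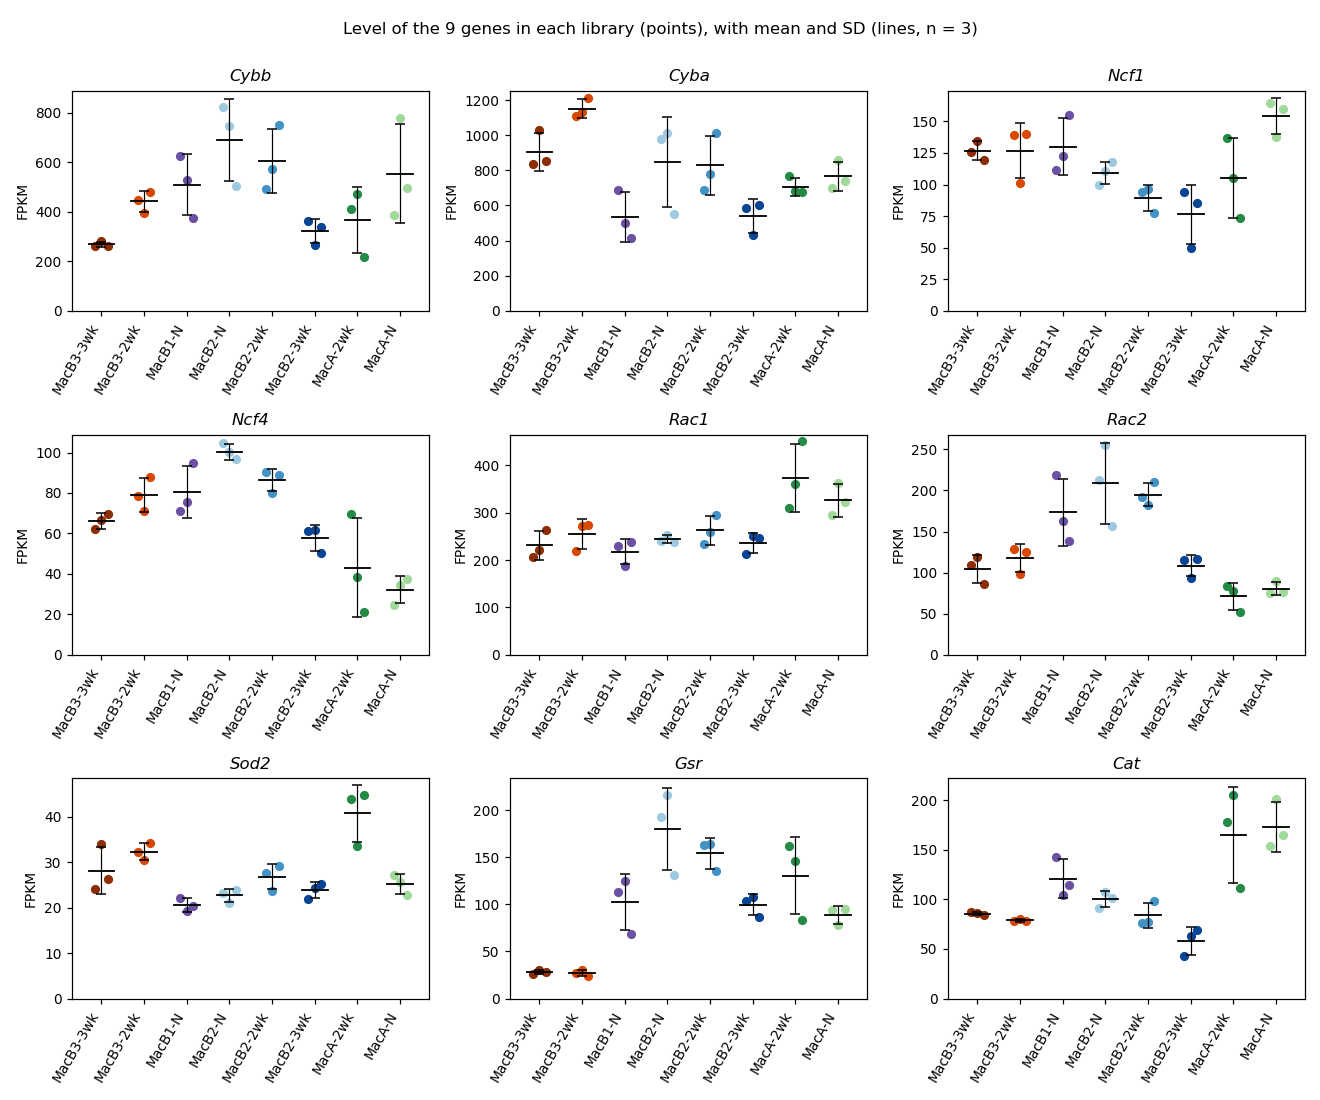
FPKM (y axis, linear from 0) of the 9 genes in each of the 24 libraries, by group (x axis); points are libraries, long lines the mean and bars the SD of 3 libraries. Gsr is at 24.1 to 30.8 FPKM in all 6 MacB3 libraries and at 68.7 FPKM or more elsewhere, Ncf4 and Rac2 have their lowest group means in MacA, and Cat is lowest in MacB2-3wk.

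The sorting markers Siglecf, Itgam, Fcgr1 and Ly6g followed the gates, and values of CD11c are not given. Siglecf averaged 231 FPKM in MacA-N and 146 FPKM in MacA-2wk, against 0.942 to 5.25 FPKM in the MacB groups, Itgam (CD11b) averaged 213 to 300 FPKM in the MacB groups, against 2.30 and 17.3 FPKM in MacA-N and MacA-2wk, and the neutrophil gene Ly6g was at 0 in every library. Fcgr1 (CD64) averaged 181 and 131 FPKM in MacB3-2wk and MacB3-3wk, 73.2 to 98.8 FPKM in the MacB2 groups and 9.54 FPKM in MacB1-N. The library MacA-2wk replicate 3 stood apart by its epithelial markers, with a mean log2(FPKM + 1) of 5.32 over 9 genes, against 2.78 and 2.97 in the other MacA-2wk libraries. Its endothelial markers summed to 209 FPKM, against 74 and 66 FPKM in those libraries, and its alveolar macrophage markers to 7131 FPKM, against 9021 and 9178 FPKM. Its fibroblast markers had a mean log2(FPKM + 1) of 4.411, against 2.565 and 2.481, but their sum of 472 FPKM lay between 374 and 687 FPKM. MacB2-N replicate 3 stood apart by endothelial markers with 447 FPKM summed over 9 genes, against 124 and 143 FPKM in the other MacB2-N libraries. MacB2-2wk replicate 2 was also high in endothelial markers, with 525 FPKM, against 183 and 195 FPKM in the other MacB2-2wk libraries, and its removal is among the single libraries left out below. Relative depth, read from the steps of low values, ranged from 0.520 to 1.000 of the deepest library, and absolute depth is unknown. Because RNA came from whole sorted populations, fewer cells of a type and less RNA per cell cannot be told apart.

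Gsr, glutathione reductase, separated MacB3 from the other sorted populations. It was at 27.3, 30.8 and 24.1 FPKM in MacB3-2wk, against 163, 164 and 136 FPKM in MacB2-2wk. At 3 weeks it was at 26.3, 30.8 and 27.8 FPKM in MacB3-3wk, against 104, 108 and 87.0 FPKM in MacB2-3wk. No MacB3 library overlapped a MacB2 library at either time. The mean was 27.4 ± 3.38 FPKM in MacB3-2wk and 154 ± 16.2 FPKM in MacB2-2wk, a log2 fold change of -2.45 (SE 0.24, adjusted p = 2.17e-06). In MacB3-3wk it was 28.3 ± 2.31 FPKM, against 99.7 ± 11.2 FPKM in MacB2-3wk (log2 fold change -1.78, SE 0.24, adjusted p = 0.000196). The gap between MacB3 and MacB2 narrowed by 0.67 on the log2 scale at 3 weeks against 2 weeks, which did not pass the test of that difference (SE 0.34, adjusted p = 0.785).

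Relative to MacA-2wk, too, Gsr was lower in MacB3-2wk. MacA-2wk libraries held 162, 146 and 83.9 FPKM, all above the 3 MacB3-2wk libraries, and the log2 fold change was -2.16 (SE 0.24, adjusted p = 2.06e-06). The 3 calls of lower Gsr in MacB3 held under every alternative run, with a highest adjusted p of 0.0135. A small nucleolar RNA gene, Gm24727, lies in an intron of Gsr on the same strand, shared none of its 2754 exonic bases and was listed at 1120 to 28050 FPKM.

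Among MacB3 and MacB2 cells of tumour-bearing lung, Gsr and Rac2 were the members called at 2 weeks and Gsr alone at 3 weeks. At 2 weeks 0 of the 9 genes were called higher and 2 lower in MacB3-2wk than in MacB2-2wk, while 10.5% of all genes tested were called, 4.51% higher and 5.97% lower. At 3 weeks 0 were higher and 1 lower in MacB3-3wk than in MacB2-3wk, while 3.60% of all genes were called, 2.15% higher and 1.45% lower. The median log2 fold change of the members was -0.08 at 2 weeks and 0.20 at 3 weeks, beside -0.08 and -0.04 over all genes tested. Macrophage markers were far higher in MacB3, with 9 of 10 called higher at each time and sums of 8928 to 15940 FPKM in MacB3 libraries, against 1478 to 2670 FPKM in MacB2-2wk and MacB2-3wk. Monocyte markers were lower, with 6 of 11 called lower at 2 weeks and 4 of 11 at 3 weeks, where 1 was higher. Their sums were 1640 to 2709 FPKM in MacB3-2wk, against 4370 to 4934 FPKM in MacB2-2wk. At 3 weeks they were 1316 to 1905 FPKM in MacB3-3wk, against 2301 to 2599 FPKM in MacB2-3wk. Endothelial markers summed to 82.2 to 112 FPKM in MacB3-2wk, against 183 to 525 FPKM in MacB2-2wk, and 4 of 9 were called lower. Neutrophil markers summed to 142 to 373 FPKM in MacB3-2wk, against 531 to 810 FPKM in MacB2-2wk, and to 209 to 348 FPKM in MacB3-3wk, against 498 to 1274 FPKM in MacB2-3wk, with 1 of 9 tested called lower at 2 weeks and 0 at 3 weeks. Of 8 dendritic cell markers tested, 3 were called lower at 2 weeks and 2 at 3 weeks. The part of these markers in the differences of the 9 genes was not tested.

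**Figure D2:**
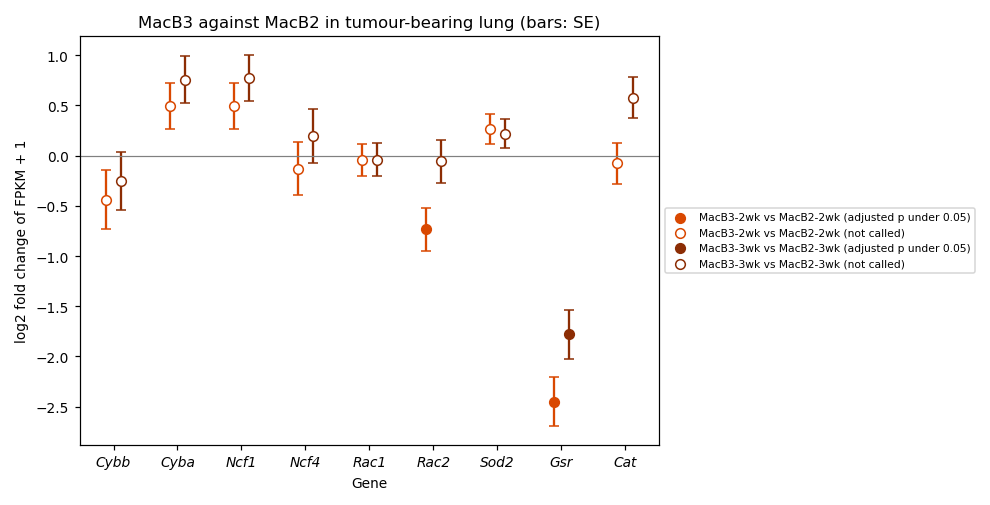
Log2 fold change of FPKM + 1 (y axis) of each gene (x axis) in MacB3 against MacB2 at 3 weeks (dark) and 2 weeks (light); points are estimates, bars the SE, and filled points have an adjusted p under 0.05. Gsr lies at -1.78 and -2.45, far below the other 8 genes, while Cyba and Ncf1 lie between 0.49 and 0.77 without being called.

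The subunits of the membrane core had different patterns in these cells. Cyba was at 834, 1029 and 851 FPKM in MacB3-3wk, against 583, 430 and 604 FPKM in MacB2-3wk, with all MacB3 libraries above all MacB2 libraries. It was at 1108, 1132 and 1213 FPKM in MacB3-2wk, against 689, 780 and 1013 FPKM in MacB2-2wk, again without overlap. Neither difference passed the test (log2 fold change 0.76, SE 0.23, adjusted p = 0.0835 at 3 weeks and 0.49, SE 0.23, adjusted p = 0.193 at 2 weeks). At 3 weeks the call appeared with quantile normalization (adjusted p = 0.0188) and upper quartile scaling (0.0380). Cybb, its partner, was at 261, 281 and 264 FPKM in MacB3-3wk, against 363, 267 and 338 FPKM in MacB2-3wk, with overlap and a log2 fold change of -0.25 (SE 0.29, adjusted p = 0.792). At 2 weeks Cybb was at 449, 395 and 481 FPKM in MacB3-2wk, all below the 494, 572 and 750 FPKM of MacB2-2wk, and this was not called (-0.44, SE 0.29, adjusted p = 0.385).

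Because both subunits were measured in each library, their ratio does not depend on a scaling factor of the library. Cyba over Cybb was 3.36 ± 0.26 in MacB3-3wk and 2.62 ± 0.22 in MacB3-2wk, with libraries from 2.47 to 3.66, against 1.67 ± 0.10 in MacB2-3wk and 1.37 ± 0.02 in MacB2-2wk, with libraries from 1.35 to 1.78. The 6 MacB3 libraries did not overlap the 6 MacB2 libraries from tumour-bearing lung. In naive lung the ratio was 1.05 ± 0.09 in MacB1-N, 1.21 ± 0.13 in MacB2-N and 1.46 ± 0.35 in MacA-N, and in MacA-2wk it ranged from 1.44 to 3.13. No test was run on this ratio. Cyba overlaps Gm20388, a gene on the opposite strand at 0 to 8.88 FPKM, but shares no exonic base with it.

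Ncf1, the organiser subunit, was at 126, 135 and 120 FPKM in MacB3-3wk, against 93.7, 49.6 and 85.7 FPKM in MacB2-3wk, without overlap and without a call (log2 fold change 0.77, SE 0.23, adjusted p = 0.0736). At 2 weeks it was at 139, 102 and 140 FPKM in MacB3-2wk, against 94.3, 96.4 and 77.6 FPKM in MacB2-2wk (0.49, SE 0.23, adjusted p = 0.193). Rac2, the RAC protein of blood cells, was at 129, 97.8 and 126 FPKM in MacB3-2wk, against 192, 182 and 210 FPKM in MacB2-2wk. It was called lower in MacB3-2wk, with all 3 libraries below those of MacB2-2wk (log2 fold change -0.73, SE 0.21, adjusted p = 0.0332). This call was lost when any of MacB2-2wk replicates 1, 2 and 3 or MacB3-2wk replicates 2 and 3 was left out, with adjusted p of 0.0610 to 0.129 and log2 fold changes of -0.79 to -0.61. Among these, MacB2-2wk replicate 2 is the library with high endothelial markers (adjusted p = 0.0610 without it). At 3 weeks Rac2 averaged 104 ± 17.04 FPKM in MacB3-3wk and 108 ± 12.9 FPKM in MacB2-3wk, with overlap (-0.06, SE 0.21, adjusted p = 0.989).

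No member was called between MacB3-3wk and MacB3-2wk, where 1 of the 9 had an unadjusted limma p under 0.05 and 0.332% of all genes were called, 0.286% higher and 0.0466% lower (1475 with an unadjusted p under 0.05). No gene of the 17156 was called in the test of whether the change between 2 and 3 weeks differed between MacB3 and MacB2 (0.00%), with 2 of the 9 members and 1121 of all genes at an unadjusted p under 0.05. Levels of Cat in MacB3 were tight, at 86.8, 85.8 and 84.0 FPKM in MacB3-3wk and 77.8, 80.3 and 78.1 FPKM in MacB3-2wk.

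In MacB2 cells, 5 of the 9 genes were lower at 3 weeks after injection than in naive lung, and none was called at 2 weeks. In MacB2-3wk against MacB2-N, Cybb, Ncf4, Rac2, Gsr and Cat were lower and 0 were higher, while 20.6% of all genes tested were called, 12.4% higher and 8.22% lower. The median log2 fold change of the members was -0.79, beside 0.00 over all genes tested. In MacB2-2wk against MacB2-N, 0 of 9 were called by limma and 0 had an unadjusted p under 0.05, while 2.17% of all genes were called, 1.84% higher and 0.326% lower (2547 with an unadjusted p under 0.05). In MacB2-3wk against MacB2-2wk, Rac2 was the 1 member called, lower, while 6.49% of all genes were called, 3.98% higher and 2.51% lower. An unadjusted limma p under 0.05 was found for 6 of the 9 members and for 3703 of the 17156 genes tested.

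**Figure D3:**
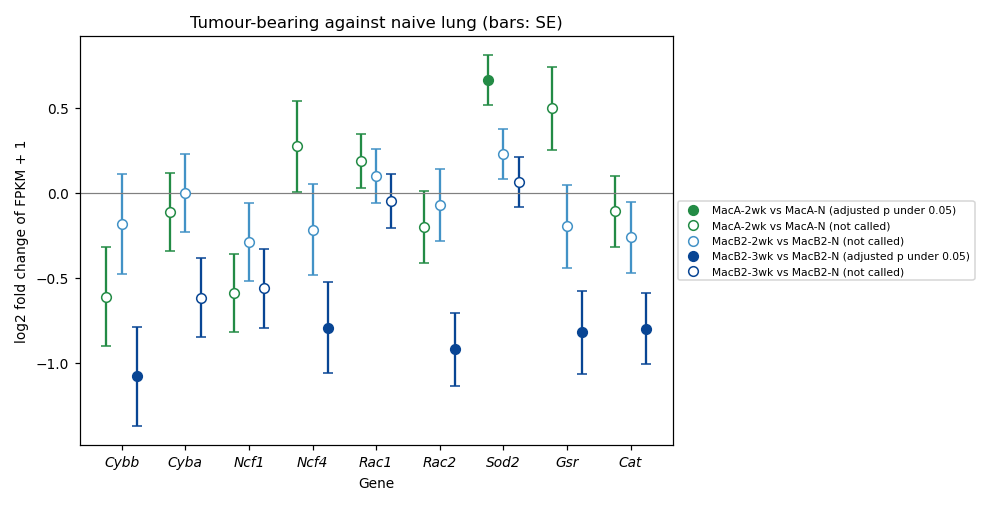
Log2 fold change of FPKM + 1 (y axis) of each gene (x axis) in tumour-bearing against naive lung for MacA at 2 weeks (green), MacB2 at 2 weeks (light blue) and MacB2 at 3 weeks (dark blue); bars are SE and filled points have an adjusted p under 0.05. For MacB2 at 3 weeks the estimates of Cybb, Ncf4, Rac2, Gsr and Cat lie between -1.08 and -0.79, while Rac1 and Sod2 lie near 0.

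Cybb, the electron-carrying subunit, was at 363, 267 and 338 FPKM in MacB2-3wk, against 824, 747 and 506 FPKM in MacB2-N. Its highest 3-week library lay below its lowest naive library, and the log2 fold change was -1.08 (SE 0.29, adjusted p = 0.0119). The call was lost without MacB2-N replicate 1 (-0.94, adjusted p = 0.0563) and without MacB2-3wk replicate 2 (-0.95, adjusted p = 0.0532). Cyba was at 583, 430 and 604 FPKM in MacB2-3wk, against 979, 1012 and 552 FPKM in MacB2-N. The groups overlapped through MacB2-N replicate 3, the library with high endothelial markers, and the log2 fold change was -0.62 (SE 0.23, adjusted p = 0.0657). Without that library it was -0.90 and called (adjusted p = 0.00575), and the call also appeared with quantile normalization (adjusted p = 0.00469) and upper quartile scaling (0.0396).

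Ncf4, which binds phosphoinositide on phagosomes, was at 61.2, 61.7 and 50.5 FPKM in MacB2-3wk, against 105, 100.1 and 96.6 FPKM in MacB2-N. Groups did not overlap and the log2 fold change was -0.79 (SE 0.27, adjusted p = 0.0426). That call was lost under 12 alternatives, among them a block on run lane (adjusted p = 0.0586), a block on replicate number (0.0563) and each of the 6 libraries left out in turn (0.0675 to 0.134, log2 fold changes -0.84 to -0.70). Ncf1 was at 76.3 ± 23.5 FPKM in MacB2-3wk, against 109 ± 8.83 FPKM in MacB2-N, without overlap and without a call (-0.56, SE 0.23, adjusted p = 0.0935).

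Rac2 was at 115, 93.3 and 116 FPKM in MacB2-3wk, against 213, 256 and 157 FPKM in MacB2-N and 192, 182 and 210 FPKM in MacB2-2wk. The 3-week libraries lay below all 6 others. Its log2 fold change was -0.92 against MacB2-N (SE 0.21, adjusted p = 0.00402) and -0.85 against MacB2-2wk (SE 0.21, adjusted p = 0.0214). Leaving out MacB2-2wk replicate 1 or 3 or MacB2-3wk replicate 1 or 2 ended the second call (adjusted p 0.0503 to 0.0767, log2 fold changes -0.90 to -0.75), and leaving out 1 library did not end the first, which was lost in a model of the compared groups alone (adjusted p = 0.0537). Rac1, the widely expressed relative, was at 212, 251 and 247 FPKM in MacB2-3wk, against 240, 253 and 239 FPKM in MacB2-N, with overlap (-0.05, SE 0.16, adjusted p = 0.904). As a result Rac2 over Rac1 was 0.46 ± 0.08 in MacB2-3wk, against 0.85 ± 0.18 in MacB2-N, and libraries ranged from 0.37 to 0.54 in MacB2-3wk and from 0.66 to 1.01 in MacB2-N.

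The antioxidant enzymes Gsr and Cat fell too. Gsr was at 104, 108 and 87.0 FPKM in MacB2-3wk, against 192, 216 and 131 FPKM in MacB2-N, without overlap (log2 fold change -0.82, SE 0.24, adjusted p = 0.0207). Its call was lost without MacB2-N replicate 1 or 2 or MacB2-3wk replicate 3 (adjusted p 0.0688 to 0.0912, log2 fold changes -0.76 to -0.67) and in a model of the compared groups alone (0.0756). Cat was at 42.6, 62.8 and 69.3 FPKM in MacB2-3wk, against 91.2, 108 and 102 FPKM in MacB2-N, with every 3-week library below every naive library (log2 fold change -0.80, SE 0.21, adjusted p = 0.00916). Without MacB2-3wk replicate 1, the lowest, the change of Cat was -0.59 and was not called (adjusted p = 0.0642), nor was it called in a model of the compared groups alone (0.0706). Sod2 was at 21.9, 24.4 and 25.3 FPKM in MacB2-3wk and 23.3, 21.1 and 23.8 FPKM in MacB2-N, with overlap (0.06, SE 0.15, adjusted p = 0.834).

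Several markers moved with this comparison. Monocyte markers were lower in MacB2-3wk, with 10 of 11 called lower and sums of 2301 to 2599 FPKM, against 5920 to 8077 FPKM in MacB2-N. Macrophage markers had 4 of 10 called higher, with sums of 1836 to 2670 FPKM in MacB2-3wk and 1606 to 2553 FPKM in MacB2-N. Their mean log2(FPKM + 1) did not overlap, at 6.19 to 6.53 in MacB2-3wk libraries and 5.06 to 5.37 in MacB2-N libraries. Neutrophil markers had 2 of 9 tested called higher and 1 lower, with sums over 12 markers of 498 to 1274 FPKM in MacB2-3wk, against 233 to 271 FPKM in MacB2-N, while Ly6g and Camp were at 0 in all 6 libraries. Fibroblast markers had 5 of 10 called higher and 1 lower, with sums of 1853 to 2373 FPKM in MacB2-3wk, against 736 to 1360 FPKM in MacB2-N. Endothelial sums were 69.9 to 83.7 FPKM in MacB2-3wk, against 124 to 447 FPKM in MacB2-N, and epithelial sums 623 to 887 FPKM, against 3373 to 10350 FPKM in MacB2-N. The part of these markers in the change of the 9 genes was not tested.

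In MacA cells, whose alveolar macrophage markers summed to 7131 to 9178 FPKM in MacA-2wk and 9635 to 11920 FPKM in MacA-N, Sod2 was the 1 member called between tumour-bearing and naive lung, while 0.857% of all genes tested were called, 0.793% higher and 0.0641% lower. Sod2, the manganese dismutase of mitochondria, was at 44.0, 33.5 and 44.8 FPKM in MacA-2wk, against 27.1, 25.7 and 22.8 FPKM in MacA-N. The groups did not overlap, and the log2 fold change was 0.66 (SE 0.15, adjusted p = 0.0364). The call was lost under 12 of 17 alternatives, including both rescalings (adjusted p = 0.0728 with quantile normalization and 0.0526 with upper quartile scaling), the replicate block (0.0548) and the removal of any library but MacA-2wk replicate 2 (0.0618 to 0.155, log2 fold changes 0.59 to 0.72). Among them, leaving out MacA-2wk replicate 3, the MacA-2wk library with the highest epithelial markers, gave 0.59 (adjusted p = 0.127). Markers of interstitial or monocyte-derived macrophages moved with this comparison, with 4 of 10 called higher and a mean log2(FPKM + 1) of 5.55 to 6.31 in MacA-2wk libraries, against 4.08 to 4.22 in MacA-N libraries. Their sums overlapped, at 621 to 1167 FPKM in MacA-2wk and 560 to 705 FPKM in MacA-N. Of the monocyte markers, 2 of 11 were called higher, with means of 3.70 to 3.99 in MacA-2wk libraries, against 2.91 to 3.26 in MacA-N libraries. Monocyte sums overlapped too, at 494 to 639 FPKM in MacA-2wk and 360 to 615 FPKM in MacA-N. Epithelial markers summed to 128 to 1136 FPKM in MacA-2wk, against 710 to 5400 FPKM in MacA-N. The part of these lists in the change of Sod2 was not tested.

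Gsr was at 162, 146 and 83.9 FPKM in MacA-2wk, against 93.7, 78.3 and 95.3 FPKM in MacA-N, with overlap through replicate 3 (log2 fold change 0.50, SE 0.24, adjusted p = 0.475). Ncf1 was at 137, 105 and 73.7 FPKM in MacA-2wk, against 165, 138 and 160 FPKM in MacA-N, without overlap and without a call (-0.59, SE 0.23, adjusted p = 0.333). The test of whether the 2-week change differed between MacB2 and MacA called none of the 9 genes by limma, with 0 at an unadjusted p under 0.05, while 0.221% of all genes were called, 0.134% higher and 0.0874% lower (1692 with an unadjusted p under 0.05).

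Between the sorted populations of naive lung, Ncf4 and Rac2 were higher in MacB2-N and MacB1-N than in MacA-N, Gsr was higher and Cat lower in MacB2-N than in MacA-N, and Rac1 was lower in MacB1-N than in MacA-N. In MacB2-N against MacA-N, 3 of 9 members were higher and 1 lower, while 28.5% of all genes tested were called, 14.3% higher and 14.2% lower. In MacB1-N against MacA-N, 2 were higher and 1 lower, while 32.8% of all genes were called, 19.4% higher and 13.4% lower. For MacB1-N the members' count is near that background.

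Ncf4 was at 105, 100.1 and 96.6 FPKM in MacB2-N and 71.0, 75.5 and 94.8 FPKM in MacB1-N, against 24.6, 34.4 and 37.3 FPKM in MacA-N. All MacB libraries lay above all MacA-N libraries, with log2 fold changes of 1.64 for MacB2-N (SE 0.27, adjusted p = 9.62e-05) and 1.31 for MacB1-N (SE 0.27, adjusted p = 0.000915). Its partner Ncf1 was at 109 ± 8.83 FPKM in MacB2-N, against 154 ± 14.3 FPKM in MacA-N, with groups apart the other way and no call (-0.49, SE 0.23, adjusted p = 0.123). Ncf1 was called lower in a limma model of the compared groups alone (adjusted p = 0.0304). Ncf4 over Ncf1 was 0.93 ± 0.11 in MacB2-N and 0.62 ± 0.01 in MacB1-N, against 0.21 ± 0.05 in MacA-N. Ncf1 shares 408 of its 3663 exonic bases with Gtf2ird2 on the opposite strand (1.86 to 11.3 FPKM), and the sources used here do not say whether strand was used in counting.

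Rac2 was at 213, 256 and 157 FPKM in MacB2-N and 219, 163 and 139 FPKM in MacB1-N, against 75.7, 89.1 and 76.6 FPKM in MacA-N. No MacB library overlapped MacA-N, and the log2 fold changes were 1.34 for MacB2-N (SE 0.21, adjusted p = 6.83e-05) and 1.08 for MacB1-N (SE 0.21, adjusted p = 0.000647). Rac1 was at 230, 187 and 237 FPKM in MacB1-N, against 294, 362 and 322 FPKM in MacA-N, also without overlap (-0.58, SE 0.16, adjusted p = 0.00899). For MacB2-N against MacA-N the change of Rac1 was -0.41 (SE 0.16, adjusted p = 0.0626) and was not called. It was called with the replicate block (adjusted p = 0.0351), with quantile normalization (0.0101), with upper quartile scaling (0.0368) and in a model of the compared groups alone (0.0420). Rac1 shares 2309 of its 4496 exonic bases with Daglb on the opposite strand, which was at 13.5 to 26.2 FPKM.

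**Figure D4:**
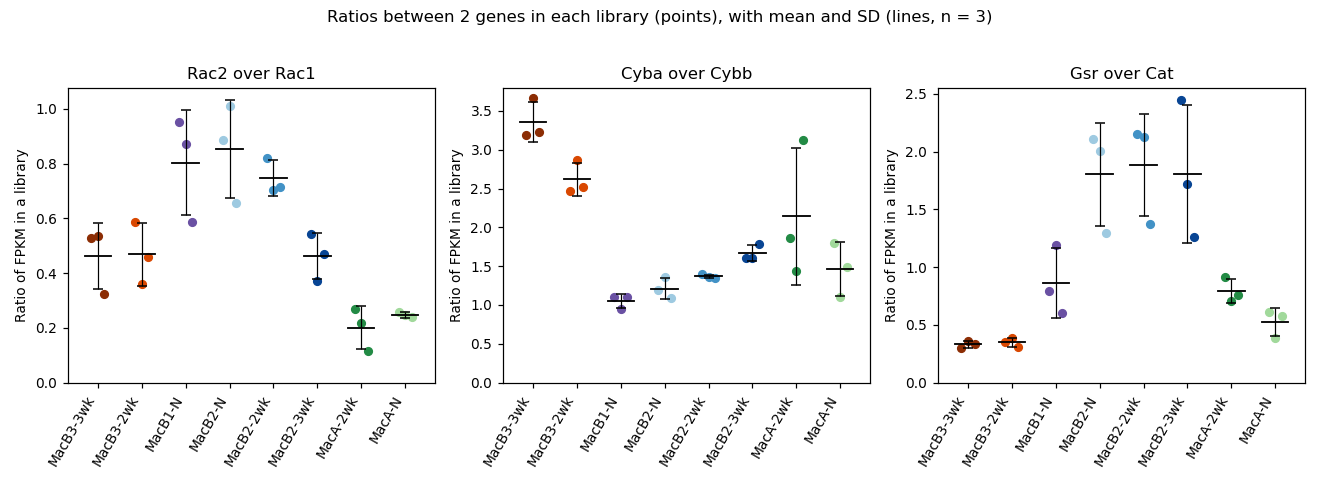
Ratio of FPKM (y axis, linear from 0) between 2 genes in each library, by group (x axis), for Rac2 over Rac1, Cyba over Cybb and Gsr over Cat; points are libraries, long lines means and bars SD of 3 libraries. Rac2 over Rac1 averages 0.20 and 0.25 in MacA, Cyba over Cybb is 2.47 or more in the MacB3 libraries, and Gsr over Cat is lowest in MacB3.

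The balance of the RAC genes was lowest in MacA and highest in MacB2-N, MacB1-N and MacB2-2wk. Rac2 over Rac1 averaged 0.20 ± 0.08 in MacA-2wk and 0.25 ± 0.01 in MacA-N. It averaged 0.47 ± 0.11 in MacB3-2wk, 0.46 ± 0.12 in MacB3-3wk and 0.46 ± 0.08 in MacB2-3wk, and 0.75 ± 0.07 in MacB2-2wk, 0.80 ± 0.19 in MacB1-N and 0.85 ± 0.18 in MacB2-N. The highest MacA library was at 0.27 and the lowest MacB library at 0.32, so MacA and MacB did not overlap, while MacB3-2wk, reaching 0.59, met MacB1-N, which went down to 0.59.

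Gsr was at 192, 216 and 131 FPKM in MacB2-N, against 93.7, 78.3 and 95.3 FPKM in MacA-N, without overlap (log2 fold change 0.98, SE 0.24, adjusted p = 0.00442). Cat, most abundant in MacA, was at 91.2, 108 and 102 FPKM in MacB2-N, against 154, 201 and 165 FPKM in MacA-N, without overlap (-0.78, SE 0.21, adjusted p = 0.00758). Gsr over Cat was therefore 1.81 ± 0.44 in MacB2-N, against 0.53 ± 0.12 in MacA-N, and 0.33 ± 0.03 and 0.35 ± 0.04 in MacB3-3wk and MacB3-2wk. Cyba and Cat were not called in MacB1-N against MacA-N, though their groups did not overlap (-0.54, adjusted p = 0.0785, and -0.52, adjusted p = 0.0615), and both were called lower without MacB1-N replicate 1 (-0.74, adjusted p = 0.0267, and -0.65, adjusted p = 0.0403) or under either rescaling. Between MacB1-N and MacB2-N 1 member was called, Gsr, while 7.04% of all genes were called, 4.27% higher and 2.76% lower. It was at 113, 125 and 68.7 FPKM in MacB1-N, all below the MacB2-N libraries (-0.82, SE 0.24, adjusted p = 0.0461), but 10 of 18 alternatives ended the call, among them the removal of MacB1-N replicate 1 or 3 or MacB2-N replicate 1 or 2 (adjusted p 0.0554 to 0.234, log2 fold changes -0.92 to -0.56). Cyba was not called in MacB1-N against MacB2-N (-0.65, SE 0.23, adjusted p = 0.109), but was lower without MacB2-N replicate 3 (-0.93, adjusted p = 0.00914) and without MacB1-N replicate 1 (-0.85, adjusted p = 0.0445). MacB1-N also differed in its markers, with dendritic cell sums of 805 to 1021 FPKM, against 41.2 to 67.8 FPKM in MacB2-N. Endothelial sums were 430 to 564 FPKM in MacB1-N, against 124 to 447 FPKM in MacB2-N and 89.7 to 118 FPKM in MacA-N. Alveolar macrophage sums were 829 to 1401 FPKM in MacB1-N, against 421 to 713 FPKM in MacB2-N. Monocyte sums were lower, at 3772 to 5888 FPKM in MacB1-N, against 5920 to 8077 FPKM in MacB2-N. The part of these markers in the comparisons of MacB1-N was not tested.

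At 2 weeks after injection the MacB groups were set against MacA-2wk. In MacB2-2wk against MacA-2wk, Ncf4 and Rac2 were higher and Rac1, Sod2 and Cat lower, 5 of 9 members, while 25.0% of all genes tested were called, 12.6% higher and 12.4% lower. In MacB3-2wk against MacA-2wk, Cyba, Ncf4 and Rac2 were higher and Rac1, Gsr and Cat lower, 6 of 9, while 21.1% of all genes were called, 9.75% higher and 11.4% lower. These comparisons share the MacA-2wk libraries. Rac2 averaged 117 ± 17.02 FPKM in MacB3-2wk and 195 ± 14.03 FPKM in MacB2-2wk, against 71.1 ± 16.7 FPKM in MacA-2wk (log2 fold changes 0.73, adjusted p = 0.0178, and 1.47, adjusted p = 3.59e-05). The first of these was lost without MacA-2wk replicate 3 or MacB3-2wk replicate 1 or 3 (adjusted p 0.0670 to 0.0917, log2 fold changes 0.53 to 0.68). Cat averaged 78.7 ± 1.34 FPKM in MacB3-2wk and 83.7 ± 12.7 FPKM in MacB2-2wk, against 165 ± 48.5 FPKM in MacA-2wk (-1.01, adjusted p = 0.00143, and -0.93, adjusted p = 0.00237).

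Cyba averaged 1151 ± 54.7 FPKM in MacB3-2wk and 707 ± 50.4 FPKM in MacA-2wk, without overlap (log2 fold change 0.70, SE 0.23, adjusted p = 0.0353), a call lost when any 1 of the 6 libraries was left out (adjusted p 0.0504 to 0.102). With quantile normalization it was 0.07 (adjusted p = 0.826), while the call held under upper quartile scaling, so this result depended on the kind of scaling. Ncf4 averaged 79.1 ± 8.45 FPKM in MacB3-2wk and 86.3 ± 5.44 FPKM in MacB2-2wk, against 42.9 ± 24.5 FPKM in MacA-2wk, whose libraries spread from 21.1 to 69.4 FPKM. Its log2 fold changes were 1.02 in MacB3-2wk (adjusted p = 0.00983, and 0.0519 without the 2 libraries that stood apart) and 1.15 in MacB2-2wk (adjusted p = 0.00357). In models of the compared groups alone the calls of Ncf4 were lost for MacB3-2wk and MacB2-2wk (adjusted p = 0.229 and 0.170). So were those of Cat (0.0635 and 0.0917) and Rac1 (0.133 and 0.147), that of Rac2 for MacB3-2wk (0.110) and that of Sod2 for MacB2-2wk (0.0826). Rac1 averaged 255 ± 30.9 FPKM in MacB3-2wk and 262 ± 30.6 FPKM in MacB2-2wk, against 374 ± 72.1 FPKM in MacA-2wk (-0.54, adjusted p = 0.0203, and -0.50, adjusted p = 0.0280). Without MacA-2wk replicate 3 the changes of Rac1 were -0.40 (adjusted p = 0.0875) and -0.35 (adjusted p = 0.109). The Rac1 call for MacB3-2wk was also lost without MacB3-2wk replicate 1 (adjusted p = 0.101). The Rac1 call for MacB2-2wk was also lost without MacA-2wk replicate 2 or MacB2-2wk replicate 1 or 2 (adjusted p 0.0509 to 0.0995). Sod2 averaged 26.9 ± 2.80 FPKM in MacB2-2wk and 40.8 ± 6.31 FPKM in MacA-2wk (-0.58, SE 0.15, adjusted p = 0.00704), and Sod2 in MacB3-2wk, at 32.4 ± 1.94 FPKM, was called lower than in MacA-2wk only without MacA-2wk replicate 2 (adjusted p = 0.0491). Cybb in MacB2-2wk was likewise called higher than in MacA-2wk only without MacA-2wk replicate 2 (log2 fold change 1.00, adjusted p = 0.0304) or with upper quartile scaling (0.77, adjusted p = 0.0407).

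Other genes of the oxidase were read from a list of 24, of which 19 were tested. In MacB2-3wk against MacB2-N, 8 were lower and 2 higher, while 8.22% of all genes tested were lower and 12.4% higher, and the median log2 fold change was -0.76, beside 0.00 over all genes. Among those called with at least 20 FPKM in the higher group, the largest changes were those of Prex1 and Dock2, exchange factors that load RAC with GTP, and of Prkcd, a kinase that phosphorylates NCF1. Prex1 averaged 30.8 ± 5.72 FPKM in MacB2-3wk and 81.4 ± 4.64 FPKM in MacB2-N (log2 fold change -1.39, adjusted p = 7.77e-05). Dock2 averaged 72.6 ± 21.6 FPKM in MacB2-3wk and 170 ± 25.7 FPKM in MacB2-N (-1.25, adjusted p = 0.00315). Prkcd averaged 92.8 ± 4.97 FPKM in MacB2-3wk and 218 ± 16.0 FPKM in MacB2-N (-1.22, adjusted p = 0.000824). In MacB2-2wk against MacB2-N and in MacA-2wk against MacA-N, 0 of the 19 were called by limma, while 2.17% and 0.857% of all genes were.

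Hvcn1, the voltage-gated proton channel that lets protons out as the oxidase moves electrons, set MacA apart. It averaged 4.87 ± 2.27 FPKM in MacB2-N, against 258 ± 3.26 FPKM in MacA-N (log2 fold change -5.55, adjusted p = 8.02e-10). In MacB3-2wk it averaged 42.5 ± 4.72 FPKM, against 10.4 ± 1.14 FPKM in MacB2-2wk (1.93, adjusted p = 0.00187), and in MacB3-3wk 39.0 ± 10.8 FPKM, against 10.2 ± 2.74 FPKM in MacB2-3wk (1.84, adjusted p = 0.00625). Pak1, a kinase that binds active RAC, averaged 41.3 ± 6.83 FPKM in MacB3-2wk and 16.99 ± 3.89 FPKM in MacB2-2wk (1.24, adjusted p = 0.000350). Over the list, 3 were higher and 3 lower in MacB3-2wk than in MacB2-2wk, while 4.51% of all genes were higher and 5.97% lower. Prkcb, a protein kinase C form that also phosphorylates NCF1, averaged 22.1 ± 1.83 FPKM in MacB2-N and 1.11 ± 1.16 FPKM in MacA-N (3.59, adjusted p = 4.01e-07).

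**Figure D5:**
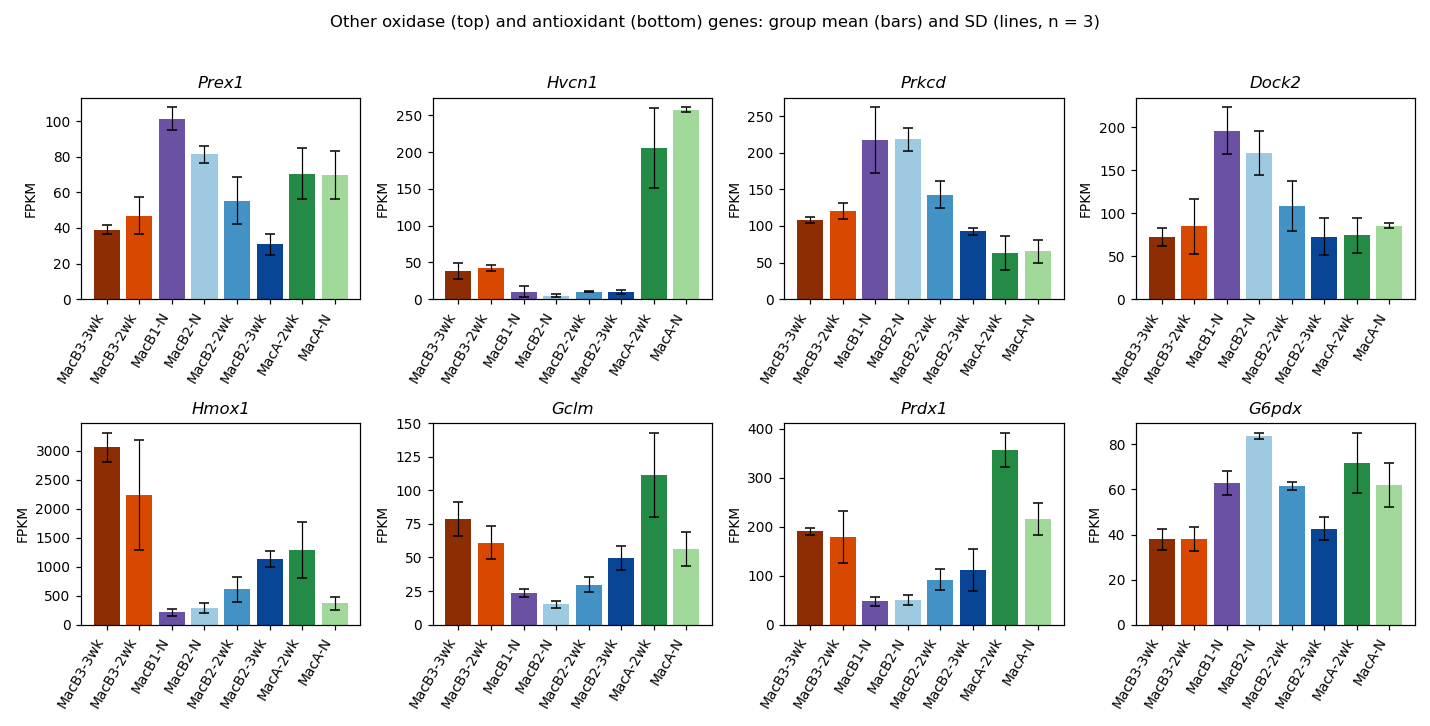
Mean FPKM (bars, y axis linear from 0) and SD (lines) of 3 libraries by group (x axis) for Prex1, Hvcn1, Prkcd and Dock2 (top) and Hmox1, Gclm, Prdx1 and G6pdx (bottom). Hvcn1 is near 258 FPKM in MacA-N and at 42.5 FPKM or less in every MacB group, and Hmox1 is highest in MacB3, while Prex1 is lowest in MacB2-3wk, at 30.8 FPKM.

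In a list of 32 other antioxidant genes, all tested, 11 were higher and 5 lower in MacB2-3wk than in MacB2-N, while 12.4% of all genes were higher and 8.22% lower, and the median log2 fold change was 0.09. Hmox1, heme oxygenase, averaged 1124 ± 137 FPKM in MacB2-3wk and 280 ± 85.5 FPKM in MacB2-N (log2 fold change 2.04, adjusted p = 0.000354). Gclm, the modifier subunit of the enzyme that starts glutathione synthesis, averaged 49.8 ± 9.03 FPKM in MacB2-3wk and 15.1 ± 2.82 FPKM in MacB2-N (1.66, adjusted p = 4.92e-05). Gpx3, a secreted glutathione peroxidase, was lower, at 44.8 ± 27.1 FPKM in MacB2-3wk and 184 ± 149 FPKM in MacB2-N (-1.93, adjusted p = 0.0425). The lower genes also included G6pdx, Taldo1 and Idh1, of which G6pdx and Idh1 encode enzymes that make NADPH.

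Hmox1 and Gsr also moved in opposite directions in MacB3. Hmox1 averaged 2240 ± 947 FPKM in MacB3-2wk, against 605 ± 216 FPKM in MacB2-2wk (log2 fold change 1.84, adjusted p = 0.00198), and 3056 ± 254 FPKM in MacB3-3wk, against 1124 ± 137 FPKM in MacB2-3wk (1.45, adjusted p = 0.0252). Of the 32 genes, 4 were higher and 2 lower in MacB3-2wk than in MacB2-2wk, while 4.51% of all genes were higher and 5.97% lower. The lower were G6pdx and Taldo1, an enzyme of the pentose phosphate pathway. Taldo1 averaged 153 ± 25.5 FPKM in MacB3-2wk and 312 ± 45.5 FPKM in MacB2-2wk (-1.02, adjusted p = 0.00172). Hmox1 also rose in MacA, averaging 1288 ± 479 FPKM in MacA-2wk and 365 ± 111 FPKM in MacA-N (1.80, adjusted p = 0.0146). It was 1 of 3 genes of the list that were higher there, while 0.793% of all genes were higher.

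The peroxiredoxins Prdx1 and Prdx6, enzymes that remove peroxide, differed in opposite directions between naive MacB2 and MacA. Prdx1 averaged 50.0 ± 10.3 FPKM in MacB2-N and 216 ± 32.9 FPKM in MacA-N (log2 fold change -2.10, adjusted p = 2.09e-06). Prdx6 averaged 170 ± 9.66 FPKM in MacB2-N and 50.7 ± 9.02 FPKM in MacA-N (1.74, adjusted p = 2.97e-05). Over the list, 6 were higher and 7 lower in MacB2-N than in MacA-N, with a median of 0.05, while 14.3% of all genes were higher and 14.2% lower.

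Of 13 regulators of the oxidant response, 12 were tested. Nfe2l2, the NRF2 factor that drives antioxidant genes, averaged 221 ± 17.5 FPKM in MacB2-3wk and 452 ± 107 FPKM in MacB2-N (log2 fold change -1.01, adjusted p = 0.00981). Bach1, a repressor at the same response elements, averaged 71.1 ± 7.45 FPKM in MacB2-3wk and 127 ± 9.17 FPKM in MacB2-N (-0.83, adjusted p = 0.0468), and 46.6 ± 13.4 FPKM in MacB3-2wk, against 118 ± 5.21 FPKM in MacB2-2wk (-1.35, adjusted p = 0.00436). In all, 3 of the 12 were lower and 0 higher in MacB2-3wk than in MacB2-N, while 8.22% of all genes were lower and 12.4% higher. Of 6 genes of reactive nitrogen and peroxidases, 4 were tested. In the same comparison, with the same shares over all genes, 2 of them were higher in MacB2-3wk, Nos2 and Arg2, and 0 lower.

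The genes whose levels were most like those of each member over the 24 libraries, among 6625 with at least 20 FPKM in a group, are given by Pearson's r as a description, since libraries of a group share their population. Rac2 was most like Tnfrsf1a (r = 0.94), Cat most like Abhd12 (0.94) and next Pparg (0.91), Gsr most like Arhgap26 (0.91), and Cyba most like Cotl1 (0.90). Ncf4 was most like Padi2 (0.90), Rac1 most like Klhl9 (0.89), Cybb most like Myl12b (0.85), Ncf1 most like Fnbp1 (0.82) and Sod2 most like Rnf187 (0.80). Between members r was 0.81 for Ncf4 with Rac2 and -0.68 for Ncf4 with Rac1, and 0.28 for the partners Cybb and Cyba. With group means taken out, r was 0.36 for Ncf4 with Rac2, -0.36 for Ncf4 with Rac1 and 0.71 for Cybb with Cyba.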

How the data were processed

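RNA was measured in 24 libraries, 3 in each of 8 groups taken from the sample titles. The deposited values are taken as FPKM made by the authors with Cufflinks 2.0.2, since the submitters' processing notes name that tool beside TopHat2 (version 2), FastQC and the build mm10, and the table's header gives no unit. Library preparation was from total RNA with a kit for degraded RNA and removal of ribosomal sequence, per the labels. FPKM carry no depth, so absolute depth is unknown.

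Values were analysed as log2(FPKM + 1) by limma 3.58.1 under R 4.3.3. The model held a mean for each group, left 16 degrees of freedom and moderated variances with a trend; genes entered it where some group averaged 1 FPKM or more, which 17156 did. There were 14 comparisons, 2 of them interactions, each adjusted by the Benjamini-Hochberg method, and the method was tested on simulated data. Alternatives were other pseudocounts, filters, 2 rescalings, no trend, a fold of at least 2, a fit of the compared groups alone, blocks, and each library left out. Leaving out both libraries that stood apart was chosen after seeing the data. Members and gene lists were chosen with earlier results of these data known. From each list up to 3 called genes per comparison, with at least 20 FPKM in the higher group, were named by largest change; 1 gene is not reported here, and G6pdx, Idh1, Nos2 and Arg2 were named after their values were seen where this rule did not name them.

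Among MacB libraries replicates 1, 2 and 3 were on lanes 2, 3 and 7, so equal numbers share a lane by the labels; deviations of same-lane libraries correlated at a median of 0.001 over 45 pairs. The loci in the table overlapped the GENCODE M21 (GRCm38) position for 4218 of 32917 genes, so positions come from GENCODE by Ensembl identifier, and protein sequences were not used here. The series' design text names the 2-week MacB3 group as a 3-week one, and the titles were followed.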

Additional observations from a re-analysis of the deposited data

How the results depend on the processing

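Of 126 results (9 genes in 14 comparisons), 29 were called, 8 of them under every alternative run, 21 were lost under at least 1, and 11 others gained under at least 1. None of the 29 called results changed sign under the alternatives run, while 28 of the 97 not called did under at least 1. Counts of members called out of 9 moved as follows. MacA-2wk against MacA-N, with 1, had 0 with a fold of at least 2, no trend, only the compared groups, quantile normalization, upper quartile scaling, the replicate block or both libraries that stood apart left out, and 0 to 1 with 1 library left out. MacB2-3wk against MacB2-N, with 5, had 1 with the fold minimum, 2 with only the compared groups and 2 to 5 with 1 library left out. MacB2-3wk against MacB2-2wk, with 1, had 0 with the fold minimum, 3 with quantile normalization and 0 to 1 with 1 library left out. MacB3-2wk against MacB2-2wk, with 2, had 1 with the fold minimum and 1 to 2 with 1 library left out. MacB3-3wk against MacB2-3wk, with 1, had 2 under either rescaling. MacB1-N against MacA-N, with 3, had 5 under either rescaling and 3 to 5 with 1 library left out. MacB2-N against MacA-N, with 4, had 2 with the fold minimum. MacB1-N against MacB2-N, with 1, had 0 with the fold minimum, no filter, no trend, only the compared groups or either rescaling, 2 with both libraries left out and 0 to 2 with 1 left out. MacB3-2wk against MacA-2wk, with 6, had 3 with the fold minimum or both libraries left out, 2 with only the compared groups and 3 to 6 with 1 left out. MacB2-2wk against MacA-2wk, with 5, had 2 with the fold minimum and 1 with only the compared groups. A fit of the compared groups alone has fewer degrees of freedom and takes its spread from those groups only. The cause of the changes in that setting and in the others was not tested. With the replicate block 0 members were called in MacA-2wk against MacA-N, Ncf4 was lost in MacB2-3wk against MacB2-N (adjusted p = 0.0563, and 0.0586 with lane as the block) and Rac1 was gained in MacB2-N against MacA-N; it changed no other call. Quantile normalization moved the median of all genes in MacB1-N against MacA-N to -0.03, against 0.12 without it, and in MacB1-N against MacB2-N to -0.02, against 0.09. With the compared groups alone, the count of all genes called was 2145 in MacB2-3wk against MacB2-N (3539 in the model of all groups), 907 in MacB3-2wk against MacB2-2wk (1798), 269 in MacB2-3wk against MacB2-2wk (1113), 302 in MacB1-N against MacB2-N (1207), 38 in MacB2-2wk against MacB2-N (372), 5 in MacA-2wk against MacA-N (147), 32 in MacB3-3wk against MacB3-2wk (57), 2123 in MacB3-2wk against MacA-2wk (3625) and 2203 in MacB2-2wk against MacA-2wk (4290). With 1 library left out the count was 88 to 275 in MacA-2wk against MacA-N, 142 to 318 in MacB2-2wk against MacB2-N, 573 to 985 in MacB2-3wk against MacB2-2wk, 1143 to 1615 in MacB3-2wk against MacB2-2wk, 332 to 445 in MacB3-3wk against MacB2-3wk (617), 11 to 39 in MacB3-3wk against MacB3-2wk, 706 to 1826 in MacB1-N against MacB2-N (2480 with both libraries left out) and 17 to 57 in the interaction of MacB2 and MacA (38).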
